A study of Mus musculus with 90 samples.

Results

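Metaphase II (MII) oocytes and 8-cell (8c) embryos of wildtype (WT) mice were compared gene by gene, to describe how far the transcriptome stored in the egg had been replaced by that of the embryo. All WT libraries of these 2 stages were taken, which gave 31 of the 90 libraries of the series: 16 oocytes and 15 8c embryos. No 2-cell embryo and no Plag1 knockout sample entered the comparison itself. The mice were on the CD-1 strain, and WT females were superovulated with 5 IU of pregnant mare serum and then 5 IU of human chorionic gonadotropin (hCG). Oocytes came from unmated females, were stripped of cumulus cells with hyaluronidase and were picked uncultured 21 to 23 h after hCG. Embryos came from females mated with WT studs, were cultured in KSOM medium and were picked at 71 to 73 h after fertilization. Each library was 1 whole oocyte or embryo, made from the 5′ ends of transcripts primed at their poly(A) tails, with ERCC spike-in RNA added in the same amount. No label tells which female an oocyte or embryo came from, and p-values therefore describe the spread among these oocytes and embryos and not among females.

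The MII oocyte does not transcribe, and its proteins are made from messenger RNA stored during growth. After fertilization most of that RNA is destroyed, by deadenylation among other routes, while the embryonic genome is switched on, in the mouse mainly at the 2-cell stage. By the 8c stage the embryo lives on its own transcripts and is about to compact, polarize and set apart trophectoderm from inner cell mass.

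The deposited values were raw counts, which were scaled in 2 ways. Levels are given as counts per 1000000 gene counts of the library (CPM), mostly as the lowest, median and highest library of a stage. Fold changes are log2 ratios of 8c to MII on the spike-in scale, in which the library size is the spike-in total, and come from the quasi-likelihood test of edgeR, adjusted by Benjamini-Hochberg over all genes tested. A gene was called at an adjusted p under 0.05, and the words rose and fell are used only for called genes. Because the reads were primed at poly(A) tails, a change in tail length and a change in the number of transcripts cannot be told apart.

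Gene counts per library ranged from 201180 to 2270241 in oocytes and from 249362 to 646359 at 8c, beside 8243 to 15428 spike-in counts. No library was a copy of another of its group (lowest chi-square per degree of freedom 6.29 among oocytes and 4.10 at 8c). The libraries were made in 2 pools of barcodes, called plates A and B in the text, and each pool held both stages (8 and 8 oocytes, 7 and 8 8c embryos). The plate A oocyte numbered 5 stood apart with 2270241 gene counts. The labelled stages were checked against their defining genes. The 8 oocyte markers together held 0.255% to 1.87% of the counts in oocytes and at most 0.0224% at 8c. The 8 embryo markers did not separate the stages as a sum, since the list holds Pou5f1 and Klf17, which oocytes also carried, but Cdx2 and Krt18 had 0 counts in all oocytes and counts in every 8c embryo. Of other cells, 17 cumulus and granulosa markers together held at most 0.00611% of an oocyte's counts and 0.00568% of an 8c embryo's. In oocytes 8 of the 17 had 0 counts, and the others, such as Fshr and Cyp19a1, had 267 counts in all. At 8c 12 had 0 counts, and the others had 162 counts in all. Has2, Ptx3, Ptgs2, Foxl2, Lum and Vcan were at 0 in both stages. Amhr2 of that list had 0 counts in oocytes and counts in all 15 8c embryos, at least 48-fold higher. The sperm list reached at most 0.0120% and the oviduct list 0.00391%. The blood and macrophage list reached 0.0886% in 1 oocyte library against a median of 0.000960%. Of its 10 genes, 3 had 0 counts in all oocytes (both beta-globin genes and Ptprc), and the others had 471 counts there in all. At 8c 5 of the 10 had 0 counts, and the others had 96 counts in all.

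No difference in the amount of RNA per spike-in was detected between the stages, and its SD was larger among oocytes in plate A but not in plate B. The log2 ratio of gene counts to spike-in counts was 5.44 ± 0.88 (SD, n = 16) in oocytes and 5.42 ± 0.35 (n = 15) at 8c. The difference was -0.0188 (two-sided permutation test, p = 0.941). Because the stages were chosen with this similarity known, the test cannot decide whether their amounts of RNA are equal. The sign of the difference depended on the plate. In plate A oocytes averaged 5.89 ± 1.02 (SD, n = 8) against 5.44 ± 0.34 (n = 7) at 8c (exact permutation test, p = 0.293). In plate B they averaged 4.99 ± 0.38 (SD, n = 8) against 5.41 ± 0.38 (n = 8) at 8c (exact permutation test, p = 0.0502). Without oocyte 5, which had a log2 ratio of 7.58, the oocyte mean was 5.30 ± 0.69. The baseline of every fold change below moves with this ratio, so gene groups are read beside the median of all tested genes.

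**Figure D1:**
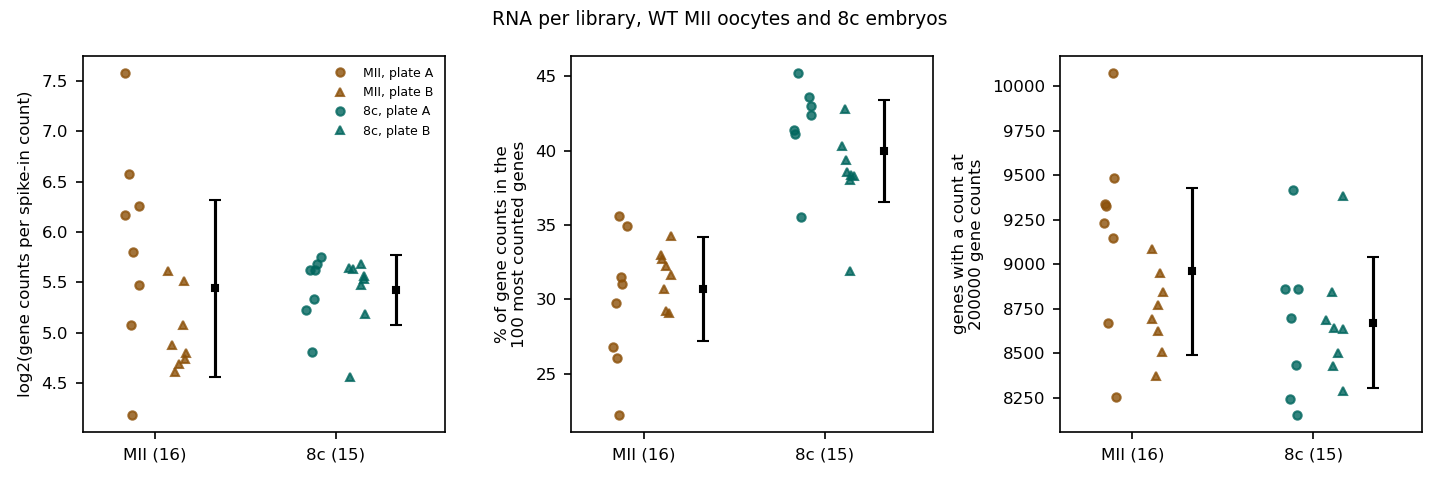
Each point is 1 library (circles plate A, triangles plate B), and the black square and bar are the mean and SD of the stage. From left to right the panels plot the log2 ratio of gene to spike-in counts, the percent of gene counts in the 100 most counted genes, and the number of genes with a count when each library is thinned to 200000 gene counts. The 8c embryos sit higher in the middle panel (40.0% against 30.7%).

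Most of the transcriptome was replaced. Of 16495 genes tested, 7176 (43.5%) fell and 4477 (27.1%) rose between the oocyte and the 8c embryo, and 4842 were not called. The genes that fell, as chosen by the test on these libraries, held 81.7% ± 1.65 (SD, n = 16) of an oocyte's gene counts and 11.3% ± 1.32 (n = 15) of an 8c embryo's. The genes that rose went from 6.06% ± 1.05 to 73.9% ± 2.43. Genes that were not called held 12.2% ± 0.89 and 14.7% ± 1.19. The mean transcriptomes of the 2 stages shared 28.8% of their counts, taken as the sum over genes of the smaller of the 2 mean shares. The same sum was 78.6% between the oocytes of plates A and B and 92.2% between the 8c embryos of the plates. Each 8c embryo shared 24.8% to 30.6% with the mean oocyte (median 27.3%), whereas it shared 80.5% to 89.3% with the mean of the other 8c embryos. Each oocyte shared 67.1% to 79.5% with the mean of the other oocytes, and 21.7% to 28.9% with the mean 8c embryo. No 8c embryo lay between the stages.

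The balance of falls to rises rested on the scaling. Rises made up 38.4% of calls on the spike-in scale, 50.1% with edgeR's TMM factors, which centre the genes, and 43.5% without oocyte 5, when 6533 genes fell and 5031 rose. The middle of the 16495 genes lay at a log2 fold change of -0.66, and at 0.00 with TMM. Among plate A libraries 6878 genes were called lower and 3004 higher, with a median of -1.10. Among plate B libraries 4561 were lower and 4914 higher, with a median of 0.00. No gene called in one direction on the spike-in scale was called in the other with TMM. A set of 4269 falling and 2680 rising genes was called under both scalings and in each plate alone, and 125 genes that fell in plate A rose in plate B.

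Many changes were large, and few ran between counts in every library of a stage and none in the other. At least 4-fold changes were seen for 5463 falling and 3215 rising genes, and at least 32-fold changes for 1347 and 666. The CPM ranges of the 2 stages did not overlap at all for 1477 falling genes (8.95% of those tested) and 1267 rising genes (7.68%). Counts in every oocyte and in no 8c embryo were found for 62 genes (0.376% of those tested), and the reverse for 91 (0.552%). All 31 libraries had counts for 2822 genes, but a count in each does not mean that the level was kept. These genes include Tcl1 (log2 fold change -8.04) and Rps29 (8.34).

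**Figure D2:**
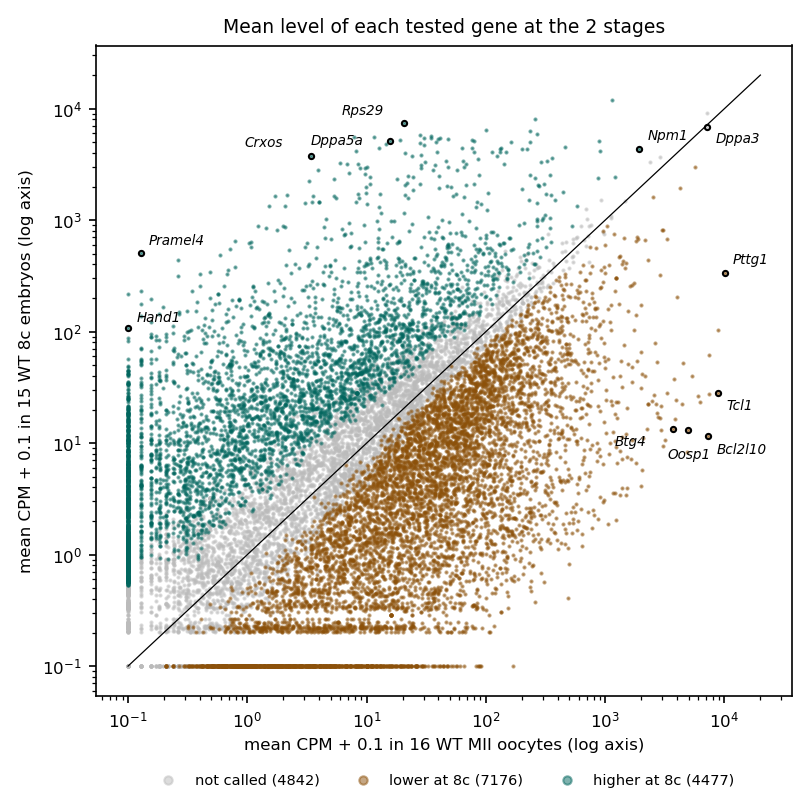
Each point is 1 tested gene, placed by its mean CPM (with 0.1 added) in 16 WT MII oocytes on the horizontal log axis and in 15 WT 8c embryos on the vertical log axis, and coloured by its call on the spike-in scale. Genes with high levels at both stages are few, with Dppa3 and Npm1 among them, and most highly counted genes lie far from the diagonal.

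The 8c transcriptome was more concentrated in its leading 100 genes, but not in its leading 20. The 100 most counted genes of a library held 30.7% ± 3.49 (SD, n = 16) of its gene counts in oocytes and 40.0% ± 3.42 (n = 15) at 8c (two-sided permutation test, p = 1e-05, the smallest that 100000 resamples can give, and 3e-05 after Benjamini-Hochberg adjustment over 3 measures per library). Exact permutation tests gave p = 0.000622 among the libraries of plate A and p = 0.000777 among those of plate B. With the cytosolic ribosomal protein genes left out it was 30.8% against 31.4% (permutation test, p = 0.615), and with the top 20 genes in place of 100 it was 13.6% against 13.3% (p = 0.640). Thinned to 200000 gene counts, an oocyte had a count for 8961 ± 468 genes and an 8c embryo for 8672 ± 369 (permutation test, p = 0.0664, adjusted 0.0996), and at least 5 counts for 4871 and 4165 genes (p = 1e-05, the smallest the resamples can give).

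Hardly any of the leading genes were shared. Both lists of 100 were picked by their level in a stage, which by itself favours a lower level in the other stage. Beside them, 43.5% of all tested genes fell and 27.1% rose. Of the 100 genes with the highest mean CPM in oocytes, 94 fell, 1 rose and 5 were not called. These genes together went from 28.2% of gene counts to 4.83%. Of the leading 100 genes at 8c, 95 rose, 1 fell and 4 were not called, and together they went from 4.00% to 39.5%. Cytosolic ribosomal proteins made up 59 of the leading genes at 8c and none in oocytes. Both lists held 6 genes: Dppa3, Rn45s, Hsp90aa1, Serf2, Eif2s2 and Npm1.

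The 10 genes with the highest mean CPM in oocytes included 8 that fell, and 6 of these follow. Pttg1, the securin that holds sister chromatids together until anaphase, had the highest mean CPM, with 3186, 10251 and 16935 CPM in oocytes and 151, 315 and 584 CPM at 8c (log2 fold change -4.76 ± 0.31 SE, adjusted p = 1.33e-25). Tcl1, a co-activator of AKT kinase, had 2496, 7589 and 30669 CPM in oocytes and 1.79, 21.9 and 84 CPM at 8c (-8.04 ± 0.41 SE, adjusted p = 1.2e-31). Spin1, a chromatin reader associated with the meiotic spindle, had 1959, 4960.4 and 30158 CPM in oocytes and 2.14, 20.1 and 76.4 CPM at 8c (-7.95 ± 0.44 SE, adjusted p = 8.69e-30). All 3 fell, and the lowest oocyte was above the highest 8c embryo. H1foo, the linker histone of the oocyte, had 639, 3350.2 and 17610.3 CPM in oocytes and 0, 11.4 and 116 CPM at 8c (-8.31 ± 0.64 SE, adjusted p = 2.58e-21). D6Ertd527e and Gm1965, whose products are not well described, fell with log2 fold changes of -7.73 and -6.35 from medians of 3715 and 7613 CPM. At 8c none of these 6 genes had a median above 315 CPM.

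**Figure D3:**
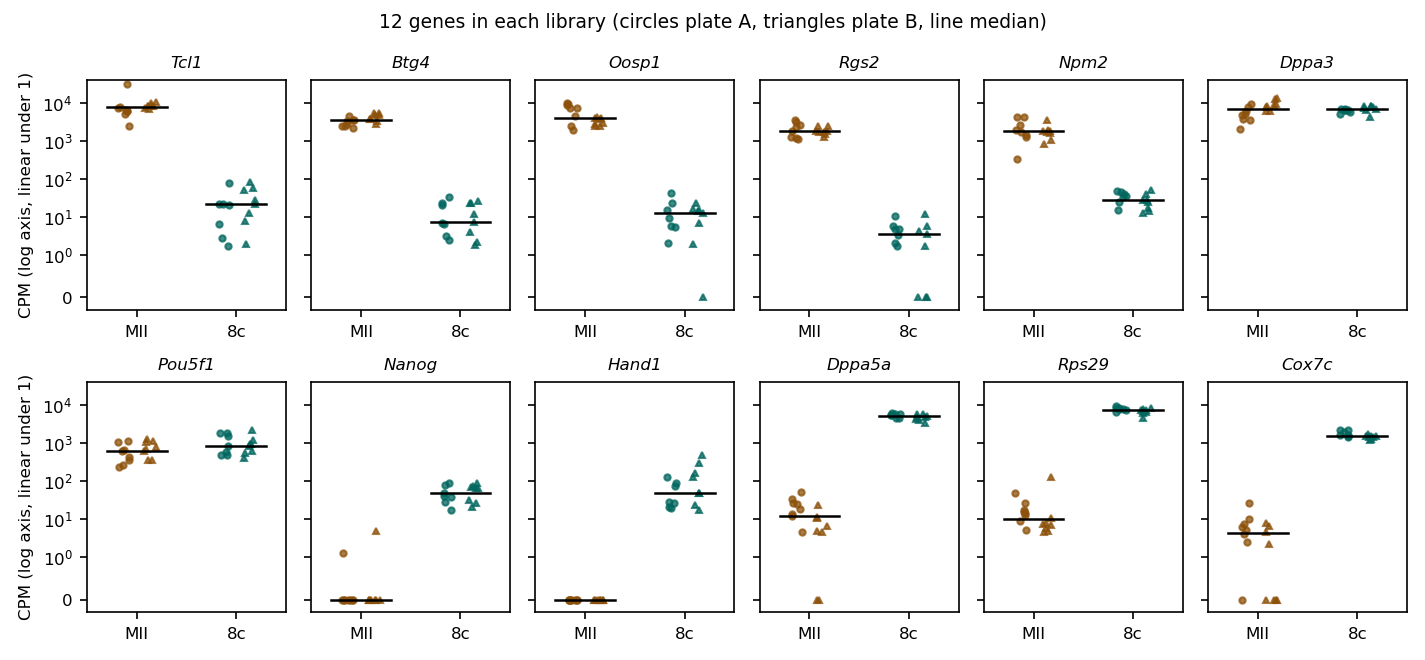
CPM of 12 genes in each library of the 2 stages (circles plate A, triangles plate B, line median), on a log axis that is linear under 1 CPM. The upper row shows 5 genes that fell, with the oocytes above the 8c embryos throughout, and Dppa3, which was not called. The lower row shows Pou5f1, which was not called, and 5 genes that rose.

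Of the 12 steepest falls, 2 reached 0 counts at 8c, and the others 2 to 100 counts summed over the 15 embryos. Gm5065 (mm9 chr7:5302144-5312284, plus strand) had 66.5, 163 and 256 CPM in oocytes and 0 counts in every 8c embryo, at least 433-fold lower with the 8c stage set to 3 counts in all. Its row overlaps the end of Nlrp2 on the other strand, so some reads of the pair may have been counted on either. Gpnmb, a membrane glycoprotein, was also counted in every oocyte (24.9, 80.8 and 219 CPM) and in no 8c embryo, at least 339-fold lower. Fbxw22 (mm9 chr9:109280923-109306808, minus strand), of an F-box family used in the oocyte, had 161, 472 and 864 CPM in oocytes and 0, 0 and 4.64 CPM at 8c, a ratio of 1485-fold, 95% interval 508 to 7203. Such ratios are of the summed counts of the stages scaled to their summed spike-ins, and the exact interval covers counting error only. Tgfb2, a secreted growth factor, had 545, 1285 and 1718 CPM in oocytes and 0, 0 and 9.55 CPM at 8c (log2 fold change -9.16 ± 0.47 SE, adjusted p = 9.93e-32). Rgs2, which shortens G protein signals, had 1144, 1839 and 3488 CPM in oocytes and 0, 3.55 and 12 CPM at 8c (-9.11 ± 0.49 SE, adjusted p = 9.87e-31). None of these genes overlapped between the stages. Rfpl4, Oas1c, Ehf, C87977, Ccdc69 and Stard13 completed the list of the 12 lowest folds with Bcl2l10 (below), each with a log2 fold change under -8.7 and counts in all 16 oocytes.

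The steepest rises started from an empty or nearly empty oocyte. Pramel4 (mm9 chr4:143649029-143659221, plus strand), of a family of leucine-rich repeat proteins, had 1 count in all 16 oocytes and 197, 445 and 886 CPM at 8c, a ratio of 3671-fold, 95% interval 658 to 145033. Bex6 (mm9 chr16:32179886-32187030, plus strand) had 0 counts in every oocyte and 115, 188 and 361 CPM at 8c, at least 513-fold higher. Mylpf, known as a myosin light chain of fast muscle, had 3 counts in all oocytes and 180.5, 391 and 923 CPM at 8c (1072-fold, 95% interval 366 to 5199). Each was counted in all 15 8c embryos, and no oocyte reached the lowest of them. Gcsh, a subunit of the glycine cleavage system, had 0, 0 and 8.77 CPM in oocytes and 839, 1647 and 2517 CPM at 8c (log2 fold change 9.31 ± 0.53 SE, adjusted p = 7.14e-29). Crxos, a homeobox gene, had 0, 2.47 and 10.6 CPM in oocytes and 1597, 2994 and 7443 CPM at 8c (9.31 ± 0.59 SE, adjusted p = 3.3e-26). Mt2, a metal-binding metallothionein, had 0, 2.28 and 13.3 CPM in oocytes and 807, 3023 and 4359 CPM at 8c (8.94 ± 0.52 SE, adjusted p = 1.39e-28), and its neighbour Mt1 had 0, 3.99 and 33.3 CPM in oocytes and 1644, 4031 and 6448 CPM at 8c (8.76 ± 0.51 SE, adjusted p = 2.6e-28). Calcoco2, Syngr1, Gm2a, Ctsl, Stmn3 and Slc4a11 made up the rest of the 12 highest folds, with log2 fold changes of 8.80 to 9.08.

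Genes of the egg coat and of oocyte secretion fell as a group. All 10 listed genes fell, where 43.5% of all tested genes did, with a median log2 fold change of -7.67 against -0.66 for all tested genes. The CPM ranges of 6 did not overlap, where 8.95% of all tested genes fell without overlap. Zp3, the zona protein best known as the sperm receptor, had 43.3, 287 and 1401 CPM in oocytes and 0, 19.1 and 51.4 CPM at 8c (-5.08 ± 0.57 SE, adjusted p = 2.77e-13), and 1 oocyte lay within the 8c range. Zp1 and Zp2, which form the zona filaments with it, fell with log2 fold changes of -5.82 and -5.98. Oosp1, an oocyte-secreted protein, had 1989, 4037 and 9863 CPM in oocytes and 0, 13.2 and 41.8 CPM at 8c (-8.77 ± 0.46 SE, adjusted p = 5.62e-31). The growth factors Gdf9 and Bmp15, by which the oocyte acts on its follicle, had 247, 712 and 10914 CPM in oocytes and 0, 14.6 and 86.6 CPM at 8c (-7.72 ± 0.73 SE, adjusted p = 1.59e-16) and 699.7, 1237 and 10075 CPM in oocytes and 0, 7.4 and 35.5 CPM at 8c (-7.88 ± 0.65 SE, adjusted p = 1.44e-19). For Zp1, Zp3 and Gdf9 the highest 8c embryos still had 51.4 to 86.6 CPM.

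The promoter of Zp3 is shown because E-boxes, the CANNTG sites of basic helix-loop-helix factors such as FIGLA, are known from zona promoters. The sequence is that of RefSeq for GRCm38.p6 (chr5:135979855-135980154, plus strand) and runs from 250 bases before the annotated start to 50 bases from it on. Capitals mark the 4 CANNTG matches, a pattern that reads the same on both strands.
Zp3: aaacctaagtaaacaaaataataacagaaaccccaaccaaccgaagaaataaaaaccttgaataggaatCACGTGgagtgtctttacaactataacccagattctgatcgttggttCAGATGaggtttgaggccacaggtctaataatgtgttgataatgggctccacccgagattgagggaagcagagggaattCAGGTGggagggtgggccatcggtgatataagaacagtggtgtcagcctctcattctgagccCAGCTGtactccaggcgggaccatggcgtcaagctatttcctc
The same pattern lay in 5 of 6 promoters of the zona and secretion list (83.3%, 5 genes with a sequence) and in 72.3% of all 32851 promoters of this length, so its presence is common. Figla itself fell from 0, 12.3 and 46 CPM to 1 count in all 8c embryos.

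Genes of the subcortical maternal complex, a protein lattice under the egg membrane, fell with 1 exception. Of 8 tested, 7 fell, where 43.5% of all tested genes did, and 1 rose, with a median log2 fold change of -6.75. Zbed3 had 3214, 6442 and 17467 CPM in oocytes and 3.57, 42.6 and 243 CPM at 8c (-7.12 ± 0.62 SE, adjusted p = 2.85e-18). Padi6, needed for the lattice to form, had 554, 1186 and 2784 CPM in oocytes and 17.6, 50 and 89.9 CPM at 8c (-5.14 ± 0.46 SE, adjusted p = 7.42e-18). Ooep had 164, 742 and 4031 CPM in oocytes and 0, 7.1 and 30.4 CPM at 8c (-6.92 ± 0.56 SE, adjusted p = 8.47e-20). Their ranges were apart, while Nlrp5, also known as MATER, fell by 5.05 on the log2 scale with an 8c range of 0, 3.55 and 113 CPM that reached into that of the oocytes. Khdc3 was the exception, with 0, 7.96 and 35 CPM in oocytes and 18.2, 42.6 and 221 CPM at 8c (2.11 ± 0.54 SE, adjusted p = 0.000332), and its ranges overlapped.

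Other oocyte gene families fell in most members, where 43.5% of all tested genes fell. All 8 tested genes of the oocyte Nlrp list fell, with a median of -6.70. Nlrp9a had 39.5, 93.2 and 171 CPM in oocytes and 0, 0 and 1.78 CPM at 8c (-7.14 ± 0.48 SE, adjusted p = 1.3e-24), and Nlrp14 had 39.8, 169.6 and 341 CPM in oocytes and 0, 3.55 and 12.4 CPM at 8c (-5.39 ± 0.53 SE, adjusted p = 1.58e-15). Of the 4 oogenesin genes, which code for leucine-rich repeat proteins, Oog2, Oog3 and Oog4 fell with log2 fold changes of -7.39, -7.30 and -7.06, and Oog3 was the most abundant with 1261, 2816 and 4868 CPM in oocytes and 4.28, 15.4 and 40.1 CPM at 8c. Oog1 rose by 1.01 and shares its span with BB287469 and Gm16381, so its counts are uncertain. Of 9 oocyte transcription factors 7 fell and 2 were not called (7 fell and 1 rose with TMM). The fallers included Nobox, which governs follicle growth (239, 1493 and 3054 CPM in oocytes and 0, 2.14 and 65.3 CPM at 8c, -7.21 ± 0.78 SE, adjusted p = 6.46e-14), and Lhx8 (13.7, 75.6 and 573 CPM in oocytes and 0, 0 and 3.55 CPM at 8c, -7.17 ± 0.79 SE, adjusted p = 1.67e-13).

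The genes that hold the egg in meiotic arrest mostly fell. Of 15 tested, 12 fell, where 43.5% of all tested genes did, 1 rose and 2 were not called (median -3.60). Wee2, a kinase that inhibits CDK1 in the oocyte, had 133, 379 and 1084 CPM in oocytes and 0, 0 and 3.7 CPM at 8c (-8.15 ± 0.48 SE, adjusted p = 4.19e-28). Mos, the kinase of cytostatic arrest, had 0, 40.6 and 849 CPM in oocytes and 0, 0 and 6.61 CPM at 8c (-8.41 ± 0.94 SE, adjusted p = 2.71e-13), with -10.18 in plate A and -3.18 in plate B. Fbxo43, the anaphase inhibitor EMI2, had 61.7, 117 and 179.6 CPM in oocytes and 0, 3.09 and 9.55 CPM at 8c (-5.35 ± 0.46 SE, adjusted p = 1.31e-18). Ccnb1, cyclin B1, which dividing cells also need, fell less, from 125, 351 and 1437 to 84, 149 and 373 CPM (-1.37 ± 0.30 SE, adjusted p = 4.68e-05), with overlapping ranges. Cdc20 and Aurkc were not called (-0.13 and -0.51).

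Factors that store and then clear maternal RNA mostly fell themselves. Of 18 tested, 13 fell, where 43.5% of all tested genes did, 1 rose and 4 were not called (median -4.06). Btg4, which brings the CCR4-NOT deadenylase to maternal messages, had 2196, 3622 and 5445 CPM in oocytes and 1.85, 7.64 and 34.2 CPM at 8c (-8.30 ± 0.46 SE, adjusted p = 1.24e-29). Cnot6l, a catalytic subunit of that deadenylase, had 79.5, 165 and 238 CPM in oocytes and 0, 3.57 and 12.4 CPM at 8c (-5.16 ± 0.41 SE, adjusted p = 2.72e-20). Pabpn1l, a poly(A)-binding partner of Btg4, had 32.2, 284 and 872 CPM in oocytes and 0, 0 and 11.5 CPM at 8c (-7.82 ± 0.71 SE, adjusted p = 2.34e-17). For these 3 the ranges did not overlap. Of the storage proteins, Zar1 had 17.9, 94.9 and 325 CPM in oocytes and 0, 0 and 16 CPM at 8c (-6.12 ± 0.67 SE, adjusted p = 1.71e-13) and Ybx2 had 24.9, 69.7 and 348 CPM in oocytes and 0, 2.02 and 36.1 CPM at 8c (-4.13 ± 0.62 SE, adjusted p = 6.71e-09). Lsm14b and the decapping factor Dcp2 fell with log2 fold changes of -5.32 and -3.99. The uridyltransferase Zcchc11 rose by 1.83, and Ddx6, a helicase of storage granules that other cells use as well, was not called (-0.43).

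Of 9 tested genes of fertilization, 7 fell and 2 rose, where 43.5% of all tested genes fell and 27.1% rose. Izumo1r, the egg receptor of the sperm protein Izumo1, had 285, 1268 and 5358 CPM in oocytes and 0, 6.42 and 344 CPM at 8c (-5.13 ± 0.78 SE, adjusted p = 1.13e-08). Itpr1, the calcium channel that carries the activation signal, had 29.8, 58.3 and 139.6 CPM in oocytes and 0, 0 and 15.3 CPM at 8c (-5.60 ± 0.56 SE, adjusted p = 3.16e-15). Cd9, a tetraspanin of the egg membrane that many other cells carry, went the other way, with 0, 12.3 and 61.6 CPM in oocytes and 721, 1004 and 1291 CPM at 8c (5.66 ± 0.41 SE, adjusted p = 1.21e-22), and the lowest 8c embryo was above the highest oocyte. Trpm7, the other rising gene, was low at both stages, with 0, 1.32 and 13.9 CPM in oocytes and 1.78, 8.93 and 30.2 CPM at 8c (1.16 ± 0.53 SE, adjusted p = 0.0438).

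In contrast, 13 of 22 tested pluripotency genes rose, where 27.1% of all tested genes did, 4 fell and 5 were not called (median 2.20, or 2.04 with genes at 0 in a stage set to their bound). Dppa5a, an RNA-binding protein of pluripotent cells, was the most abundant, with 0, 12 and 50.9 CPM in oocytes and 3335, 5250.3 and 6150.3 CPM at 8c (7.76 ± 0.49 SE, adjusted p = 4.77e-26). Nanog, the homeodomain factor of the naive state, had 0, 0 and 4.97 CPM in oocytes and 17.2, 49 and 92.9 CPM at 8c (6.04 ± 0.55 SE, adjusted p = 1.81e-17). Klf5 had 0, 0 and 1.75 CPM in oocytes and 30.6, 94.7 and 216 CPM at 8c (6.60 ± 0.52 SE, adjusted p = 1.92e-20), and Utf1 had 0, 0 and 4.6 CPM in oocytes and 42, 118 and 220.1 CPM at 8c (302-fold, 95% interval 103 to 1469). Dppa4 and Zfp42, both chromatin-associated, rose by 6.04 and 5.17 on the log2 scale. Tdgf1, the Nodal co-receptor, had 0 counts in every oocyte and 15.4, 24.1 and 237 CPM at 8c, at least 107-fold higher. The ranges of these 7 genes did not overlap between the stages.

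Pou5f1, which codes for OCT4, was not among the risers. It had 233, 642 and 1319.6 CPM in oocytes and 399, 846 and 2202 CPM at 8c (0.46 ± 0.37 SE, adjusted p = 0.264) and was called higher with TMM scaling (1.05, adjusted p = 0.0028). The fallers of the list were Tcl1 (above), Klf17, Lin28a and Sall4. Klf17 had 341, 973 and 5282 CPM in oocytes and 3.82, 28.1 and 118 CPM at 8c (-4.84 ± 0.41 SE, adjusted p = 4.02e-19), and Lin28a, a let-7 inhibitor, had 16.7, 114 and 239 CPM in oocytes and 3.82, 15.3 and 42.6 CPM at 8c (-2.35 ± 0.42 SE, adjusted p = 6.96e-07). Sall4 fell by 0.92 on the spike-in scale but stood at 0.60 in plate B and 0.14 with TMM.

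Some trophectoderm genes rose as well. Of 12 tested, 5 rose, 3 fell and 4 were not called (median 0.30), where 27.1% of all tested genes rose and 43.5% fell. Tead4, the transcription factor that opens the trophectoderm programme, had 0, 0 and 1.37 CPM in oocytes and 60.7, 136 and 253 CPM at 8c (7.51 ± 0.59 SE, adjusted p = 9.71e-21), with separate ranges. Cdx2 had 0 counts in every oocyte and 1.79, 15.3 and 158 CPM at 8c, at least 89.4-fold higher. Hand1, a basic helix-loop-helix factor of trophoblast, had 0 counts in every oocyte and 17.8, 49.6 and 495 CPM at 8c, at least 257-fold higher. Both were counted in all 15 8c embryos, and their levels there spanned a wide range. Tfap2c rose by 1.13, with 0.30 in plate A and 2.80 in plate B, and Gata3 was not called (52.4, 101 and 174 CPM in oocytes and 4.64, 28.6 and 389 CPM at 8c, -0.85 ± 0.43 SE, adjusted p = 0.0652). Primitive endoderm genes were mixed, with 2 of 6 rising and 2 falling (3 and 1 with TMM).

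Several epithelial genes rose, among them keratins 18 and 8, the first intermediate filaments of the embryo. Krt18 had 0 counts in every oocyte and 9.75, 34.4 and 105 CPM at 8c, at least 99.7-fold higher, and Krt8 had 0, 0 and 7.39 CPM in oocytes and 17.1, 45.8 and 266 CPM at 8c (5.50 ± 0.64 SE, adjusted p = 2.5e-12). Of 5 tested keratins 4 rose, where 27.1% of all tested genes did, with a median of 5.37 (4.71 with bounds). Tight junction genes rose too. Cldn7 had 0, 0 and 10 CPM in oocytes and 66.4, 141 and 311 CPM at 8c (6.39 ± 0.52 SE, adjusted p = 1.27e-19). F11r, the adhesion molecule JAM-A, had 0, 4.15 and 10.5 CPM in oocytes and 166, 275 and 447 CPM at 8c (5.82 ± 0.47 SE, adjusted p = 5.04e-20), and Cldn4 had 0, 9.27 and 23.8 CPM in oocytes and 152, 334 and 683 CPM at 8c (4.73 ± 0.51 SE, adjusted p = 9.23e-14). For all 3 the 8c embryos lay above every oocyte. Over the whole adhesion and polarity list 7 of 23 genes rose and 9 fell (median -0.32), near the 27.1% and 43.5% of all tested genes, and with TMM the balance turned, with 11 rising and 5 falling (median 0.91). Among the fallers were polarity genes that the oocyte uses, Pard3 (157, 279.8 and 688 CPM in oocytes and 0, 21.4 and 55.4 CPM at 8c, -4.11 ± 0.44 SE, adjusted p = 4.54e-14) and Prkci (26.4, 56.7 and 143 CPM in oocytes and 0, 0 and 12 CPM at 8c, -4.42 ± 0.45 SE, adjusted p = 6.23e-15). Cdh1, E-cadherin, was not called, with 4.06, 45.7 and 537 CPM in oocytes and 32.2, 124 and 387 CPM at 8c and opposite signs in the plates (-1.84 in A, 2.72 in B).

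Channels for fluid transport were mixed. Of 9 sodium pump and aquaporin genes 5 rose and 2 fell (6 and 1 with TMM), where 27.1% of all tested genes rose and 43.5% fell. Aqp3, a water and glycerol channel, had 1 count in all oocytes and 27.8, 108 and 334 CPM at 8c, a ratio of 1170.1-fold, 95% interval 209.6 to 46252. Aqp9 rose from 9.94, 32.5 and 133 to 45.8, 84 and 187 CPM (1.08 ± 0.32 SE, adjusted p = 0.0022). The sodium-proton exchanger Slc9a3 fell, with 0, 24.1 and 244 CPM in oocytes and 0, 0 and 4.01 CPM at 8c (-6.06 ± 0.75 SE, adjusted p = 1.27e-11).

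The cytosolic ribosome took up a large part of the 8c transcriptome. The 79 listed ribosomal protein genes together held 0.119% to 1.72% of an oocyte's gene counts (median 0.463%) and 20.4% to 30.8% of an 8c embryo's (median 27.6%). All but 1 rose, where 27.1% of all tested genes did, and the median log2 fold change was 6.22. The ranges of 77 of the 79 did not overlap between the stages, where 7.68% of all tested genes rose without overlap. Rps29 had 4.6, 10.2 and 127 CPM in oocytes and 4476, 7499.9 and 9397 CPM at 8c (8.34 ± 0.44 SE, adjusted p = 2.98e-31). Rplp2, of the acidic stalk of the large subunit, had 41.4, 246 and 562 CPM in oocytes and 4139, 6201 and 7593 CPM at 8c (4.41 ± 0.27 SE, adjusted p = 8.98e-27). The leading 10 genes at 8c also held Rpl10, Rps16, Rpl37a, Rpl27a and Rpl26, with 8c medians of 7337, 6351, 6449, 5937 and 5742 CPM. The row of Rpl26 overlaps that of Gm15772. The smallest rise was that of Rpl4 (2.77) and the largest that of Rpl38 (8.73). Processed copies of these genes are common in the genome, and reads that match several copies may have been split among them in the deposited counts.

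Rps15a was the gene that did not rise. It had 22.2, 117 and 265 CPM in oocytes and 26.6, 56.1 and 98.9 CPM at 8c (-1.53 ± 0.38 SE, adjusted p = 0.000254), with -2.25 in plate A and 0.04 in plate B, and it was not called with TMM (-0.60, adjusted p = 0.0584). Its 8c level was far under those of the other ribosomal protein genes named above.

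Starts of 3 of these genes are shown, since ribosomal protein messages are known for a pyrimidine tract at their 5′ end. Each sequence is RefSeq's for GRCm38.p6 and covers 30 bases before and 30 from the annotated start on, so the start is the base after the first 30. The positions are chr7:141447621-141447680 on the plus strand for Rplp2, chr7:28350659-28350718 on the plus strand for Rps16 and chr7:118116118-118116177 on the minus strand for Rps15a. Capitals mark the runs CTTTC, or likewise CTTTT, and furthermore CTTCC on the transcript's strand, lying between 5 bases before the start and the base 12 from it on, and overlapping matches run together.
Rplp2: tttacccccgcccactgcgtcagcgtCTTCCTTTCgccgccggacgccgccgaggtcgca
Rps16: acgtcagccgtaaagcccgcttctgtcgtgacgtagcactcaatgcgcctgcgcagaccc
Rps15a: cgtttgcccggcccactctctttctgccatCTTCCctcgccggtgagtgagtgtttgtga
Rplp2 and Rps15a each hold the motif in this window, and Rps16 does not. Rps16 rose (36.8, 175 and 619 CPM in oocytes and 4595, 6351 and 7369.8 CPM at 8c, 4.49 ± 0.32 SE, adjusted p = 1.03e-22). The annotated starts were not compared with the 5′ ends counted in these libraries, so a motif at another start would be missed. A link between the motif and the change was not tested. The motif was found in 22 of 68 promoters of the list (32.4%, 58 genes with a sequence), in 7 of 74 promoters of mitochondrial ribosomal protein genes (9.46%) and in 6.78% of all 32851 promoters.

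Other parts of the machinery of protein synthesis rose with the ribosome, beside 27.1% of all tested genes that rose and 43.5% that fell. Of 30 nucleolar genes for ribosome assembly 22 rose and 2 fell (median 1.76). Nhp2, of the box H/ACA particles that modify ribosomal RNA, had 0, 8.05 and 43.6 CPM in oocytes and 1340.2, 1764 and 1965 CPM at 8c (6.43 ± 0.49 SE, adjusted p = 2.86e-21). Nop16 had 0, 0 and 7.93 CPM in oocytes and 170.1, 257 and 409 CPM at 8c (6.21 ± 0.53 SE, adjusted p = 8.77e-19). Npm1, abundant at both stages, rose from 527, 2018 and 2973 to 2473, 4527 and 5834 CPM (1.21 ± 0.22 SE, adjusted p = 1.2e-06), whereas Ncl and Fbl were not called (-0.07 and -0.47) and had opposite signs in the plates. Of 77 mitochondrial ribosomal protein genes 45 rose, 9 fell and 23 were not called (median 1.52, with 58 rising and 4 falling by TMM), from -2.66 for Mrps36, which stood at 0.22 in plate B, to 6.46 for Mrps34.

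Translation factors rose in most members, where 27.1% of all tested genes rose and 43.5% fell. Of 61 tested, 34 rose, 11 fell and 16 were not called (median 1.06). The subunits of initiation factor 3 rose or were not called, and Eif3g showed the largest rise among them, with 0, 3.18 and 24.7 CPM in oocytes and 387, 518 and 1191 CPM at 8c (5.25 ± 0.58 SE, adjusted p = 1.31e-13). The elongation factor Eef1g had 0, 5.47 and 73.7 CPM in oocytes and 465, 687 and 857 CPM at 8c (5.63 ± 0.48 SE, adjusted p = 1.34e-18). Both were above every oocyte in every 8c embryo. The fallers were led by cap-binding proteins and their partner, Eif4e3 and Eif4enif1, with log2 fold changes of -6.42 and -5.79. Eif4e1b, the cap-binding protein of the oocyte, had 262, 1377 and 4719 CPM in oocytes and 0, 5.33 and 72.7 CPM at 8c (-6.21 ± 0.62 SE, adjusted p = 2.37e-15), while the general form Eif4e had 187, 575 and 1149 CPM in oocytes and 379, 631 and 1348 CPM at 8c and was not called (0.09). Of 37 aminoacyl-tRNA synthetases 15 rose and 9 fell (21 and 6 with TMM), and Yars led with 6.57. Together, however, the synthetases held 0.153% to 1.26% of gene counts in oocytes (median 0.457%) and 0.170% to 0.362% at 8c (median 0.216%). Of 41 spliceosome genes 13 rose, a share near the 27.1% of all tested genes, and 12 fell, whereas with TMM 23 rose and 3 fell. The largest rises among the spliceosome genes were those of Lsm4 (7.32, 0 counts in oocytes) and Snrpd2 (6.77).

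Subunits of the CCT chaperonin and of the proteasome rose in most members, where 27.1% of all tested genes rose and 43.5% fell. All 8 subunits of the CCT chaperonin rose (median 2.45), although the rise of Cct8 was not seen in plate A (-0.09). Cct6a had 0, 0 and 2.98 CPM in oocytes and 218, 314 and 487 CPM at 8c (8.04 ± 0.46 SE, adjusted p = 8.6e-29). Of 18 heat shock proteins and other chaperones 7 rose, 4 fell and 7 were not called (median 0.13, with 10 rising and 3 falling by TMM). Of 38 proteasome genes 25 rose, 5 fell and 8 were not called (median 1.74). Psmb5, the chymotrypsin-like subunit, had 0, 1.67 and 10.3 CPM in oocytes and 457, 579 and 676 CPM at 8c (7.36 ± 0.53 SE, adjusted p = 9.56e-23), and Psmd13, of the lid, had 0, 0 and 3.51 CPM in oocytes and 118, 195 and 291 CPM at 8c (7.71 ± 0.53 SE, adjusted p = 4.5e-24). Psma7 was among the exceptions, with 267, 1321 and 3535 CPM in oocytes and 514, 674 and 882 CPM at 8c (-1.20 ± 0.31 SE, adjusted p = 0.000351), and so was Psmd9, an assembly chaperone (46.2, 289 and 410.3 CPM in oocytes and 8.55, 36.3 and 88.7 CPM at 8c, -2.87 ± 0.37 SE, adjusted p = 5.37e-11). Together the proteasome genes held 0.219% to 0.818% of counts in oocytes and 1.03% to 1.27% at 8c.

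**Figure D4:**
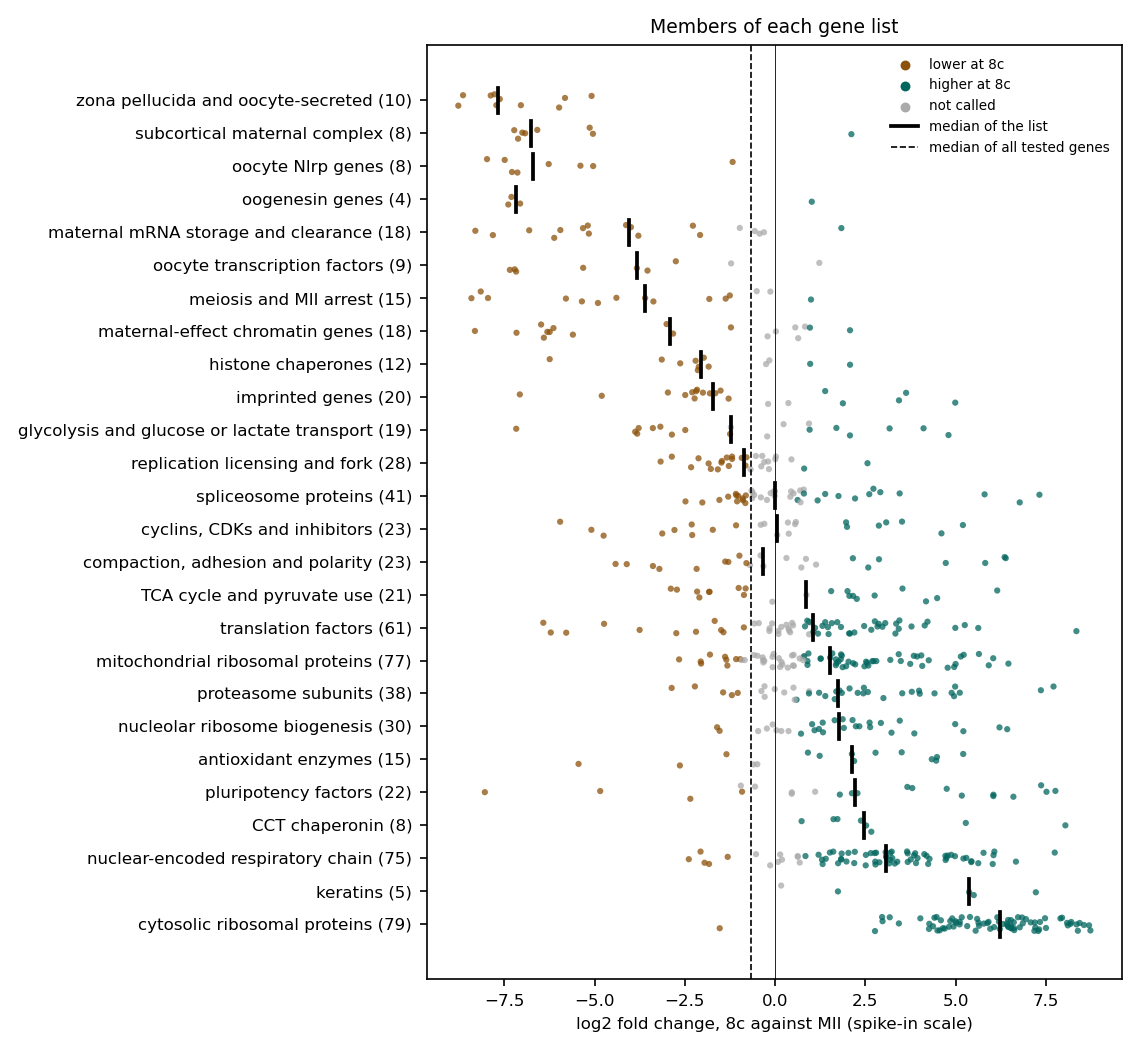
Log2 fold change (8c against MII, spike-in scale) of every tested member of 26 gene lists, coloured by its call, with the number tested in brackets. Thick lines are list medians, and the dashed line is the median of all 16495 tested genes (-0.66). The zona list lies at the left (-7.67) and the cytosolic ribosomal protein list at the right (6.22), with Rps15a alone at -1.53.

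Most respiratory chain genes of the nucleus rose. Of 75 tested respiratory genes 62 rose, where 27.1% of all tested genes did, 5 fell and 8 were not called (median 3.07). The ranges of 51 did not overlap. Of all tested genes 7.68% rose and 8.95% fell without overlap. They held 0.344% to 0.747% of counts in oocytes and 1.70% to 2.60% at 8c. Cox7c, of cytochrome oxidase, had 0, 4.36 and 26.8 CPM in oocytes and 1247, 1553 and 2283 CPM at 8c (7.74 ± 0.49 SE, adjusted p = 6.23e-26). Of the 5 that fell, 3 were of complex II, Sdha, Sdhc and Sdhd (-1.83, -1.95 and -2.07), while its remaining subunit Sdhb rose, with 0, 7.84 and 32.5 CPM in oocytes and 41.8, 74 and 94.9 CPM at 8c (2.76 ± 0.43 SE, adjusted p = 2.86e-08). Atp5sl and Ndufa10 were the others.

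In the citric acid cycle and pyruvate entry 10 genes rose, 9 fell and 2 were not called (12 rose and 6 fell with TMM). Among isocitrate dehydrogenases, Idh2 had 0 counts in every oocyte and 0, 14.3 and 47.9 CPM at 8c, at least 47-fold higher, and Idh3b, which shares its span with Nop56, rose by 4.49. Mpc2, of the mitochondrial pyruvate carrier, had 0, 6.06 and 16.2 CPM in oocytes and 134, 184 and 254 CPM at 8c (4.18 ± 0.46 SE, adjusted p = 1.54e-13). Dlat and Pcx fell, with log2 fold changes of -2.89 and -2.72. In glycolysis and its transporters 6 of 19 genes rose and 9 fell (median -1.22), shares near those of all tested genes (27.1% and 43.5%), and with TMM 8 rose and 7 fell. Ldhb, the heart form of lactate dehydrogenase, had 506, 3572 and 8655 CPM in oocytes and 6.42, 21.9 and 51.5 CPM at 8c (-7.17 ± 0.43 SE, adjusted p = 9.24e-28). Gapdh, Tpi1 and Pkm fell, with -2.86, -3.82 and -3.78. Hexokinases rose, Hk1 with 0, 0 and 17.9 CPM in oocytes and 17.6, 34.3 and 104 CPM at 8c (4.80 ± 0.60 SE, adjusted p = 2.19e-11) and Hk2 with 0, 2.8 and 27.6 CPM in oocytes and 5.73, 55 and 98.3 CPM at 8c (3.17 ± 0.55 SE, adjusted p = 3.56e-07), and so did Pgam1, with 0, 22.8 and 55.4 CPM in oocytes and 160.4, 405 and 735 CPM at 8c (4.11 ± 0.43 SE, adjusted p = 1.18e-14). The glucose transporter Slc2a1 fell by 3.39, and Slc2a3 rose by 1.70.

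Of 18 tested maternal chromatin genes 11 fell, where 43.5% of all tested genes did, 2 rose and 5 were not called (median -2.92). With TMM 10 fell and 5 rose. Npm2, the histone chaperone of the egg, had 332, 1785 and 4302 CPM in oocytes and 12.9, 28.6 and 52.1 CPM at 8c (-6.24 ± 0.38 SE, adjusted p = 3.91e-27). Zfp57 and Kdm1b, which serve imprinting in the oocyte and early embryo, had 553, 1491 and 10501 CPM in oocytes and 2.85, 12.9 and 61.8 CPM at 8c (-7.16 ± 0.54 SE, adjusted p = 1.84e-21) and 114, 250.2 and 448 CPM in oocytes and 0, 2.14 and 19.5 CPM at 8c (-6.40 ± 0.58 SE, adjusted p = 1.9e-17). For these 3 the stages did not overlap. Dnmt1, the maintenance methyltransferase, had 82.9, 648 and 1735 CPM in oocytes and 0, 14.6 and 35.7 CPM at 8c (-6.31 ± 0.58 SE, adjusted p = 3.13e-17), and its partner Uhrf1 fell by 5.60. Hira, a chaperone of histone H3.3, rose (0, 5.09 and 32.2 CPM in oocytes and 20.1, 44.3 and 103 CPM at 8c, 2.07 ± 0.49 SE, adjusted p = 0.000111). Dppa3, which shields the egg's methylation from loss, was among the 10 most counted genes of both stages, with 2007, 7051 and 13101 CPM in oocytes and 4332, 6799 and 8542 CPM at 8c (0.02 ± 0.21 SE, adjusted p = 0.938), and its sign differed between the plates (-0.14 in A, 0.17 in B).

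Histone and cell cycle genes were mixed. Of 54 tested replication-dependent core histone genes 18 rose, 13 fell and 23 were not called (median 0.82, or 0.67 with bounds), and with TMM 27 rose and 11 fell. Of all tested genes 27.1% rose and 43.5% fell. These messages mostly lack poly(A) tails, and the priming was on poly(A). Of the variants, H2afz rose from 40.2, 88.3 and 221 to 1118, 1738 and 2192 CPM (4.12 ± 0.25 SE, adjusted p = 5.8e-27). Of 23 cyclins, kinases, inhibitors and E2F genes 7 rose and 9 fell (9 and 6 with TMM), shares near those of all tested genes. Cdk1 had 0, 10.6 and 167 CPM in oocytes and 271, 422 and 550.4 CPM at 8c (3.51 ± 0.53 SE, adjusted p = 1.04e-08), and Ccne1, cyclin E1, had 0, 0 and 4.6 CPM in oocytes and 3.82, 37.3 and 80.7 CPM at 8c (5.20 ± 0.56 SE, adjusted p = 5.99e-14). The inhibitors went apart, Cdkn1a up (0, 5.05 and 27.6 CPM in oocytes and 57.2, 162 and 557 CPM at 8c, 4.61 ± 0.51 SE, adjusted p = 1.36e-13) and Cdkn1b down (2.31, 35.3 and 73.3 CPM in oocytes and 0, 0 and 1.91 CPM at 8c, -5.95 ± 0.65 SE, adjusted p = 1.15e-13). Of 28 replication genes 16 fell and 2 rose, with a median of -0.87 that lies near that of all genes (-0.66) and was -0.28 with TMM, by which 10 fell and 7 rose. Orc5 had the largest fall (143, 291 and 702 CPM in oocytes and 17.1, 38.9 and 90.5 CPM at 8c, -3.17 ± 0.35 SE, adjusted p = 2.8e-13), and Rpa2 rose (3.7, 28.3 and 51.9 CPM in oocytes and 131, 172 and 231 CPM at 8c, 2.56 ± 0.35 SE, adjusted p = 4.9e-10).

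In the families that follow, picked with their values known, members that fell are set beside members that rose, and no test was made of such pairs. Among demethylases, Tet3 had 387, 990.2 and 3842 CPM in oocytes and 0, 15.4 and 135 CPM at 8c (-6.14 ± 0.64 SE, adjusted p = 2.09e-14), while Tet1 had 0, 5.36 and 16.7 CPM in oocytes and 12.5, 60.2 and 124 CPM at 8c (2.77 ± 0.47 SE, adjusted p = 1.9e-07) and Tet2 had 0, 9.23 and 26.6 CPM in oocytes and 9.25, 96.5 and 444 CPM at 8c (3.40 ± 0.57 SE, adjusted p = 1.43e-07). Among Obox homeobox genes, Obox5 had 441, 813 and 1210.5 CPM in oocytes and 0, 0 and 6.42 CPM at 8c (-8.61 ± 0.49 SE, adjusted p = 1.07e-28), and Obox1 and Obox7 fell, with -7.49 and -7.16. Obox6 had 0, 0 and 5.73 CPM in oocytes and 328, 674 and 1056 CPM at 8c (7.89 ± 0.53 SE, adjusted p = 9.97e-25). In these families the ranges of Tet3, Obox5 and Obox6 were apart, and those of Tet1 and Tet2 overlapped at their edges.

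In the Bcl2 family, the survival gene Bcl2l10 had 4402, 7194 and 12859.8 CPM in oocytes and 0, 5.36 and 43.3 CPM at 8c (-9.21 ± 0.54 SE, adjusted p = 2.11e-28), and Bcl2l1 had 161, 485 and 868 CPM in oocytes and 6.61, 44.4 and 127 CPM at 8c (-3.36 ± 0.41 SE, adjusted p = 9.43e-12). Mcl1 had 3 counts in all oocytes and 15.5, 39.9 and 147 CPM at 8c, a ratio of 109-fold, 95% interval 36.9 to 529.8. Of the genes that promote death, Bok had 1 count in oocytes and 8.02, 43.9 and 97.6 CPM at 8c (318-fold, 95% interval 56.6 to 12587), and Bik fell, with 13.9, 115 and 276 CPM in oocytes and 0, 0 and 24.1 CPM at 8c (-5.23 ± 0.57 SE, adjusted p = 9.69e-14). Over the family 8 of 15 genes rose and 3 fell, where 27.1% of all tested genes rose and 43.5% fell. The family's summed share of gene counts was lower at 8c, with a median of 0.0330% against 0.769% in oocytes. Among RNA-binding proteins of the Igf2bp family, Igf2bp3 had 30.8, 63.2 and 159 CPM in oocytes and 0, 7.74 and 19.5 CPM at 8c (-3.30 ± 0.44 SE, adjusted p = 2.27e-10) and Igf2bp1 had 0, 0 and 7.69 CPM in oocytes and 23.6, 105 and 223 CPM at 8c (6.46 ± 0.57 SE, adjusted p = 4.23e-18). Igf2bp2, the most abundant in oocytes, fell by 2.68.

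Of 15 antioxidant genes 10 rose, where 27.1% of all tested genes did, and 3 fell. Their summed share of gene counts nevertheless had a median of 0.539% in oocytes and 0.381% at 8c, with overlapping ranges. Prdx2 had 572, 2724 and 5677 CPM in oocytes and 19.8, 51.5 and 85.3 CPM at 8c (-5.44 ± 0.33 SE, adjusted p = 1.31e-27), and Prdx1, which shares its span with AV051173, fell by 2.64. Prdx6 had 0, 16 and 44.7 CPM in oocytes and 384, 725 and 939 CPM at 8c (5.21 ± 0.38 SE, adjusted p = 1.46e-22), and Gpx4, which repairs lipid peroxides, had 5.13, 28.9 and 164 CPM in oocytes and 577, 974 and 1799 CPM at 8c (4.46 ± 0.46 SE, adjusted p = 6.66e-15). In initiation, Eif1b had 135, 1068 and 2649 CPM in oocytes and 10.7, 26.7 and 188 CPM at 8c (-4.74 ± 0.41 SE, adjusted p = 1.45e-18), and Eif1a had 3 counts in all oocytes and 152, 237 and 337 CPM at 8c (533-fold, 95% interval 182 to 2589).

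Of cytosolic chaperones, Hsp90aa1 went from 2357, 5184 and 13425 to 1885, 2731 and 4616 CPM (-1.05 ± 0.27 SE, adjusted p = 0.000365), a fall that was -0.09 in plate B and was not called with TMM (-0.44, adjusted p = 0.0806). Hsp90ab1 had 389, 834 and 1627 CPM in oocytes and 3868, 4615 and 7965 CPM at 8c (2.35 ± 0.28 SE, adjusted p = 5.68e-12), and Hspa8 had 9.21, 57.9 and 346 CPM in oocytes and 1439.8, 2375 and 4713 CPM at 8c (3.90 ± 0.50 SE, adjusted p = 6.09e-11). H3f3b and H3f3a code for the same protein. H3f3b had 1163, 4290.5 and 6124 CPM in oocytes and 1125, 1924 and 3268 CPM at 8c (-1.14 ± 0.21 SE, adjusted p = 1.47e-06), and H3f3a had 36.8, 253 and 1267 CPM in oocytes and 1888, 2460.5 and 3339 CPM at 8c (2.49 ± 0.33 SE, adjusted p = 1.87e-10). Both H3.3 genes were counted in every library, and at 8c their medians were 1924 and 2460 CPM.

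**Figure D5:**
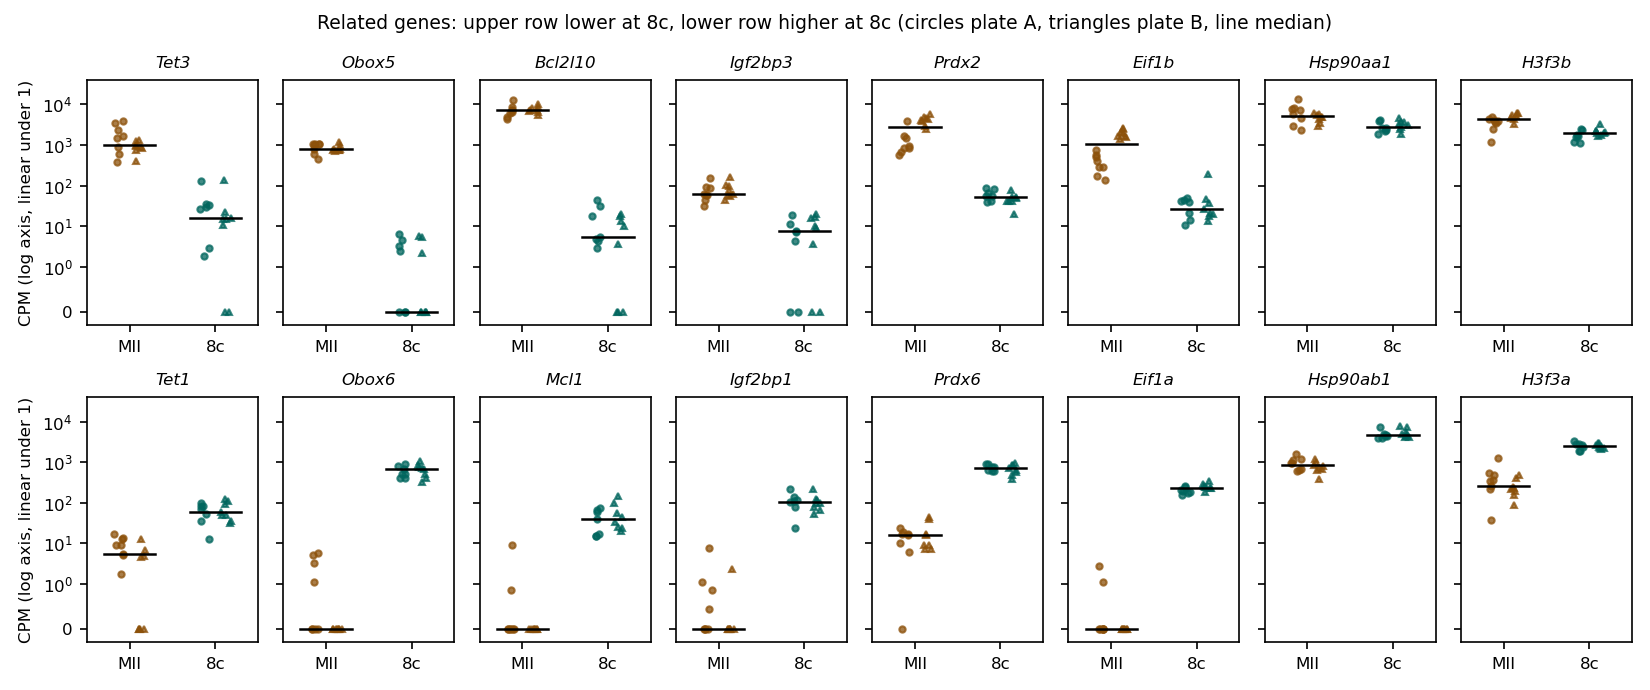
CPM of 8 pairs of related genes in each library (circles plate A, triangles plate B, line median), on a log axis that is linear under 1 CPM. The gene in the upper row was called lower at 8c on the spike-in scale and the gene under it higher. In the 6 pairs on the left the rising gene had an oocyte median of at most 16.0 CPM, and in the 2 pairs on the right both genes were above 30 CPM in every library.

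A few abundant genes were not called. Those with the highest mean CPM were Rn45s, Dppa3 (above), Serf2, Eif2s2 and Cox8a. Rn45s, the ribosomal RNA precursor, which carries no poly(A) tail of its own, had 2166, 5456 and 27075 CPM in oocytes and 3688, 8983 and 16077 CPM at 8c (0.43 ± 0.26 SE, adjusted p = 0.132). Serf2 had 1085, 2891 and 5631 CPM in oocytes and 2414, 3751 and 5270.1 CPM at 8c (0.27 ± 0.23 SE, adjusted p = 0.277). Eif2s2, of initiation factor 2, had 998, 2474 and 4034 CPM in oocytes and 2559.8, 3326 and 4152 CPM at 8c (0.37 ± 0.23 SE, adjusted p = 0.15). Cox8a had 477, 1449.95 and 2311 CPM in oocytes and 1041, 1549 and 1909.8 CPM at 8c (0.14 ± 0.21 SE, adjusted p = 0.548), and it was the respiratory gene with the highest oocyte level. With TMM scaling Rn45s, Serf2, Eif2s2 and Cox8a were called higher at 8c, and Dppa3 was not (adjusted p = 0.0804).

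Genes known from the 2-cell burst of transcription gave few counts at either stage in the examples named here. Of 20 listed, 14 were tested, and their median was -0.11, with 2 rising, 4 falling and 8 not called (4 rising and 3 falling with TMM). Of all tested genes 27.1% rose and 43.5% fell. Zfp352 had 1 count in 16 oocytes and 5 counts in 15 8c embryos. Zscan4c had 20 counts in oocytes and 0 at 8c, and Zscan4d had 5 and 0. Tdpoz2 rose, with 0 counts in every oocyte and 0, 10.7 and 40.8 CPM at 8c, at least 28.3-fold higher. Genes of these clusters are near-identical copies, so single members are uncertain.

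Of 20 tested imprinted genes 13 fell on the spike-in scale, where 43.5% of all tested genes did, 5 rose and 2 were not called (median -1.73, or -1.58 with bounds). With TMM 7 fell and 6 rose (median -0.82). Mest, which shares its span with Copg2, had 25.4, 111 and 660.3 CPM in oocytes and 0, 1.91 and 6.06 CPM at 8c (-7.07 ± 0.71 SE, adjusted p = 2.42e-15). Meg3, a long non-coding RNA, was counted in 13 oocytes (0, 5.05 and 23 CPM) and in no 8c embryo. Igf2r, within whose span Airn begins, had 0, 5.2 and 23.3 CPM in oocytes and 33.7, 92.9 and 155 CPM at 8c (3.43 ± 0.52 SE, adjusted p = 1.22e-08). Slc38a4, an amino acid transporter, had 0 counts in every oocyte and 0, 7.31 and 25 CPM at 8c, at least 19.9-fold higher. Of the PLAG family, Plag1 fell, with 2.56, 26.2 and 179 CPM in oocytes and 0, 0 and 10.1 CPM at 8c (-4.75 ± 0.65 SE, adjusted p = 6.08e-10), and was counted in 5 of 15 8c embryos. Plagl1 and Plagl2 fell, with -2.49 and -2.41 on the spike-in scale, and Plagl2 stood at 0.60 in plate B and was not called with TMM (adjusted p = 0.092).

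Xist, the RNA that coats the inactive X chromosome, split the 8c embryos. In 7 embryos it had 0 to 3.57 CPM, and 7 Y-linked genes together had 4 to 23 counts. In the other 8 embryos it had 182 to 565 CPM, and the Y-linked genes had 0 or 1 count. No oocyte had a Y-linked count, and 2 of 16 oocytes had Xist counts, up to 6.66 CPM. The row of Xist overlaps that of its antisense partner Tsix, and the sources used here do not state that strand was used in counting.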

How the data were processed

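The authors sequenced 5′ ends of transcripts from single oocytes and embryos (STRT) in 46-plex pools with molecular identifiers, aligned them with TopHat and counted them with HOMER on mm9 over gene spans, per the study's methods and the labels. The deposited values were raw read counts per gene, with 92 ERCC spike-in rows. All columns matched 1 sample. The 47 rows spanning over 2.5 Mb, which held 8.9% of the gene counts of the series, were set aside.

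Genes that reached 1 CPM in 5 or more kept libraries were tested with edgeR 4.0.16 (quasi-likelihood, limma 3.58.1, R 4.3.3), fitted on 78 kept libraries of 6 groups with the spike-in total as library size. The 12 libraries left out included no WT oocyte and no WT 8c embryo. DESeq2 1.42.0 was an alternative. Lists were described by counts and medians, and some share members. Members, lists and tests were chosen with earlier results of these data known. Named genes were list members, the 12 highest and 12 lowest folds (mean of at least 50 CPM, same direction in both plates), the 10 most counted per stage and the 5 most counted not called. Mt1 was named after its values were seen. Some genes that met the naming rule are not reported here. Fits were also run on simulated counts in which few genes changed and the spike-in totals set the scale exactly. Since most genes changed in these data, that run checked the code and not the calls. Intervals and floors (3 counts over a stage) cover counting error only. Promoters came from RefSeq.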

Additional observations from a re-analysis of the deposited data

How the results depend on the processing

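No paired analysis was possible because the labels give plate wells and no replicate numbers shared between the stages. The number of falling genes was 4561 in plate B alone against 7176 in all libraries, and within 1.5 times the reported number under every other alternative run, as were the rises. The middle log2 fold change over the tested genes (-0.66) was 0.00 with TMM and in plate B, -0.075 with median-ratio factors, -0.37 with gene totals, -1.10 in plate A, -0.41 with no filter, -0.90 with a minimum of 5 CPM in 14 libraries and -0.33 without oocyte 5, the last chosen after seeing the data. The difference in the log2 ratio of gene to spike-in counts turned to 0.417 in plate B and 0.124 without oocyte 5. That in the share of the leading genes turned to -0.347 percentage points with 20 genes and was 0.558 without ribosomal protein genes. With the rows over 2.5 Mb kept it was 5.69 (35.9% in oocytes against 41.6% at 8c). The number of detected genes differed by -472.95 at 100000 counts (permutation test, p = 0.00137) and by -705.7 with at least 5 counts.

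Of 215 named genes tested, 199 were called, and 171 of these kept their call and direction in every alternative. Among genes called in all libraries or under the alternative, signs turned for 8. With TMM the values were 0.67 for Cdc20, 0.71 for Ncl and 0.14 for Sall4. With median-ratio factors they were 0.55 for Cdc20 and 0.59 for Ncl. In plate B they were 2.72 for Cdh1, 0.22 for Mrps36, 1.34 for Ncl, 0.60 for Plagl2, 0.038 for Rps15a and 0.60 for Sall4. In plate A Cct8 stood at -0.086. The cause was not tested. Of the recomputed counts of called list members, 129 moved by over 1.5 times and 1187 did not. Genes with few counts in 1 stage were limited by depth, and for these bounds or ratios with counting intervals were given.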
